A study of Mus musculus with 14 samples.

Results

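The Cep genes take their names from the centrosome, the small organelle that organises microtubules, separates the chromosomes at mitosis and, as the basal body, anchors the primary cilium. They are grouped by name and by where their proteins sit, not by common descent. The members here are those protein-coding genes on autosomes, as RefSeq annotates them on GRCm38.p6 (mm10), whose symbol is Cep followed by a digit. That rule gave 38 genes of 20665. It used no measured value, but it was chosen with earlier results of these data known.

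Accessible chromatin was measured by bulk ATAC-seq, in which a transposase cuts DNA where it is not packed away, in long-term haematopoietic stem cells from the bone marrow of C57BL/6 mice. The 14 libraries fell into 3 groups, which were aged cells treated with Rhosin (aged Ri, 100 µM, mice over 80 weeks, n = 5), aged cells without it (aged, over 80 weeks, n = 5) and young cells without it (young, 10 to 16 weeks, n = 4). Rhosin, or Ri, is a small molecule that blocks activation of RhoA, a GTPase that regulates the actin cytoskeleton. All 3 groups went through 16 h outside the animal, in buffered saline with serum at 37 °C, 3% oxygen and 5% carbon dioxide, and no group was left unincubated. The labels call the replicates biological and do not give the number of mice behind each, so the p-values measure the spread between these libraries.

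A dividing cell duplicates its centrosome once per cell cycle. Cep192, Cep152, Cep63 and Cep57 form the scaffold on which a new centriole is started, others lengthen it or cap it, and the distal appendage proteins Cep83, Cep89 and Cep164 dock the finished centriole at the membrane. Long-term stem cells in the marrow are mostly quiescent, a state in which the centrosome is not duplicated. Accessibility at a promoter shows that the chromatin there is open and is not a measure of transcript or protein.

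The deposited matrix gives raw counts in 57289 peaks of 700 bp. Library totals ran from 1255878 to 3176246 counts in aged Ri, from 1153199 to 2705576 in aged and from 765533 to 2219775 in young libraries. The share of counts in peaks within 1 kb of an annotated gene end was 35.9 to 46.8% in aged Ri, 38.8 to 49.6% in aged and 47.0 to 50.8% in young libraries. Of the 10 stem cell marker genes listed, 8 had a peak at an end, and Gata2 and Slamf1 had none. Among markers of other cells, B cells had 3 of 6 genes with such a peak, T and NK cells 2 of 7, the erythroid lineage 3 of 6, the myeloid lineage 6 of 8, endothelium and stroma 4 of 7, and megakaryocytes 5 of 6. The summed level of the megakaryocyte genes was 299 to 389 CPM (a read count normalised for depth, here scaled over gene ends by the trimmed mean of M values) in aged Ri, 299 to 578 CPM in aged and 138 to 299 CPM in young libraries. In bulk samples, fewer cells of a type and less open chromatin per cell cannot be told apart.

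Of the 38 Cep genes, 37 had at least 1 peak and together held 79 peaks. Cep295nl had none. Most loci were simple, with 1 peak at 15 genes and 2 peaks at 12, while 10 genes had 3 or more and Cep164 had the most, 6. An annotated end carried a peak in 36 genes, all but Cep41 and Cep295nl. RefSeq promoter entries listed start sites for 32 of the members, and all 32 had a peak within 1 kb of such a site, against 10778 of 17492 genes (61.6%) in the whole annotation. For 29 of the 31 genes with both an end and a listed start site, the peaks were the same. The exception with no peak in common was Cep70. At 12 of the 36 ends the peak also lay at the end of a neighbour, so its counts belong to a shared promoter region: Cep95 shares it with the RNA helicase gene Ddx5, Cep57l1 with Sesn1, Cep290 with Tmtc3, and Cep63 with Anapc13.

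The Cep promoters were open in all 3 groups and more so than most. All peaks of the table are 700 bases long, so levels per peak are per length. The median level was 88.5 CPM per peak at Cep gene ends, against 51.9 CPM per peak over all 13239 ends tested. The level was above that median in 30 of 36 Cep ends and above the upper quartile of all ends, 94.5 CPM per peak, in 17. At listed start sites the median was 108 CPM per peak, scaled over start sites, against 63.4 CPM per peak over all 10763 tested, with 26 of 32 members above the median. The most open end was that of Cep57, which helps recruit the duplication scaffold, at 442 ± 108 CPM per peak in aged Ri, 452 ± 86.5 in aged and 384 ± 90.5 in young libraries (SD, n = 5, 5 and 4). It ranked above 99.7% of all ends. Next came Cep120 (mean of all libraries 259 CPM per peak), which acts in centriole elongation, Cep43 (223), which binds Cep350 and Cep19 at the distal end, Cep290 (192), a gatekeeper of the ciliary transition zone, and Cep350 itself (183). The least open were Cep170b (23.7), a paralogue of the subdistal appendage protein Cep170, then Cep76 (32.5), which restrains repeated duplication, and Cep78 (40.8). The Cep57 peak also lies at the end of Fam76b, the Cep290 peak at that of Tmtc3, the Cep76 peak at that of Psmg2 and the Cep170b peak at that of Gm46382.

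**Figure D1:**
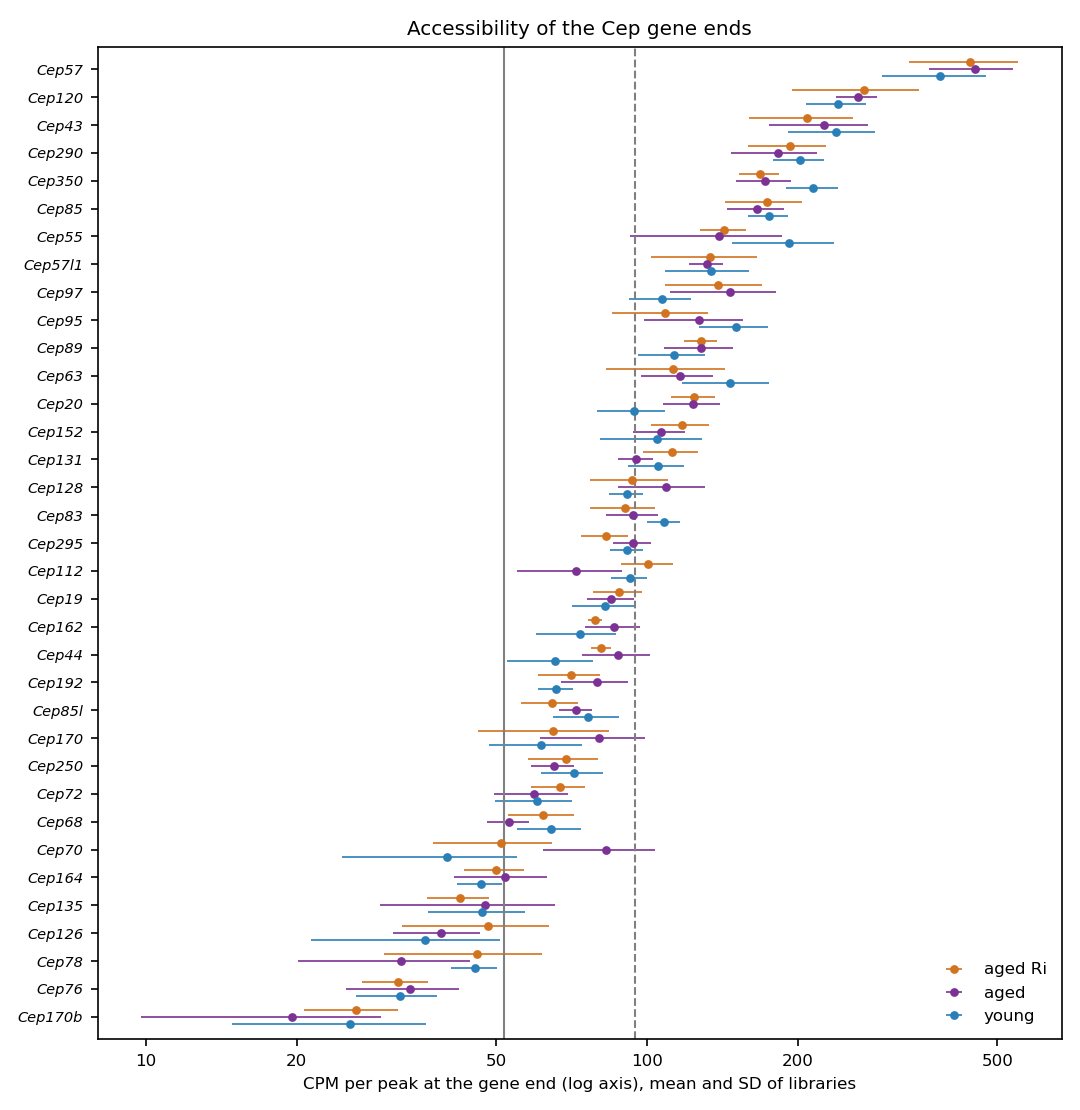
Mean CPM per peak at 35 of the 36 Cep gene ends (log axis) in aged Ri, aged and young libraries, with the SD of 5, 5 and 4 libraries. The solid and dashed lines mark the median (51.9) and upper quartile (94.5) of all 13239 ends, and most Cep genes sit right of the solid line with the 3 groups close together.

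The promoter sequences (RefSeq, GRCm38.p6, 250 bases before to 50 after each start) were rich in G and C. The 39 windows of the 32 genes had a median G and C content of 62.0%, against 56.3% over all 21263 windows and 60.7% over the 13850 windows of genes with a peak at a start site. The ratio of observed to expected CpG had a median of 0.86 in Cep windows, 0.57 over all and 0.74 where a start site had a peak. Of 4 short motifs searched on both strands, GTTGCC, part of the site bound by RFX factors of ciliary genes, was in 23.1% of Cep windows, 12.6% of all and 12.8% of those with a peak. TTTGAA, the core of the element of cell cycle genes called CHR, was in 28.2%, 16.0% and 11.9% of the same sets. CCAAT was in 43.6%, 38.2% and 37.6%, and CCGGAAG, an ETS-type site, in 15.4%, 11.6% and 16.3%. None of the 4 motifs contains another, a match is a description and not a bound site, and several genes have more than 1 window.

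4 promoters are shown for the genes described most closely. That of Cep70 is set against an open region far upstream, that of Cep41 had the lowest log2 fold change of the 32 start sites in aged Ri against aged cells, and those of Cep97 and Cep55 were the start sites called between aged and young cells in the fit with the replicate number as a block, in which 7.73% of all start sites were called. Aged and young libraries of 1 number are not paired, and the fit to all 14 libraries with sequencing batch as a term called no Cep start site. With 1 library left out, that fit called 0 to 2. Capitals mark matches to the 4 motifs, and each window runs 5′ to 3′.
Cep70 (chr9:99243091-99243390, plus strand): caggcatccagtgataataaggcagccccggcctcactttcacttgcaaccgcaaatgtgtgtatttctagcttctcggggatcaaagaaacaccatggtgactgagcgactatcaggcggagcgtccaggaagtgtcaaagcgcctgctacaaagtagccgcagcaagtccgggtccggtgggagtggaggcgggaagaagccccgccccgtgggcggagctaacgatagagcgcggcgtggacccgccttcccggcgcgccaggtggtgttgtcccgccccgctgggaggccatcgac
Cep41 (chr6:30693700-30693999, minus strand): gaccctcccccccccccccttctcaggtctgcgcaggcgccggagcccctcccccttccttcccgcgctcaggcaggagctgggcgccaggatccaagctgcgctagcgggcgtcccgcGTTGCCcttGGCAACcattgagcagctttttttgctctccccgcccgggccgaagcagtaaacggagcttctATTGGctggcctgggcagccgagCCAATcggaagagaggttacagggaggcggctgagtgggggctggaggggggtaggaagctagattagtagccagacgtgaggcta
Cep97 (chr16:55934799-55935098, minus strand): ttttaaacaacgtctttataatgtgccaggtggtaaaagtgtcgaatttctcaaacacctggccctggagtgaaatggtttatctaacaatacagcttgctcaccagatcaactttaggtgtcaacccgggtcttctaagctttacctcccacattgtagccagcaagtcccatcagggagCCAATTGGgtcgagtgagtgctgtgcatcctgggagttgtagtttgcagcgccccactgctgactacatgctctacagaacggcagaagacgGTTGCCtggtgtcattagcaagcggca
Cep55 (chr19:38054734-38055033, plus strand): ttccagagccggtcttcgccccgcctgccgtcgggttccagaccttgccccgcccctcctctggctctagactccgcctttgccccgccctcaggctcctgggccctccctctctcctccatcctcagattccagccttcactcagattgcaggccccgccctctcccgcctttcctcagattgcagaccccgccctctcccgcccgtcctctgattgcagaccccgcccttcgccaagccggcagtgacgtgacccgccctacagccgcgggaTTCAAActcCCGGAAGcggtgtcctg
The Cep70 window held none of the 4 motifs, at a G and C content of 62.0%. The Cep41 window held 2 matches of GTTGCC facing each other and 2 of CCAAT. In the Cep97 window CCAAT stands on both strands with overlapping letters, and the Cep55 window holds TTTGAA on the opposite strand just before CCGGAAG.

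Rhosin treatment of aged cells was compared first, which asks whether inhibiting RhoA alters chromatin in aged stem cells. At gene ends, 1 of 36 Cep genes changed, and it fell (Cep70, edgeR's quasi-likelihood test with sequencing batch as a term, Benjamini-Hochberg adjusted over all 13239 ends). The share called over all ends in either direction was 0.0755% (10 ends) and the share called lower was 0.0151% (2 ends). The Cep ends had a median log2 fold change of -0.01, against -0.00 over all ends. Of the Cep ends 35 of 36 lay within 0.5, as did 94.8% of all ends. None of the 32 listed start sites was called, in edgeR or in DESeq2, while edgeR called 0.177% of all start sites. At an unadjusted p under 0.05 in edgeR, 2 were higher and 2 lower, with 6.23% of all start sites under it. None of the 79 single peaks was called by edgeR, with 0.446% of all peaks called. At an unadjusted p under 0.05 in edgeR, 2 peaks were higher and 4 lower, with 10.2% of all peaks under it. DESeq2 called 1 Cep peak, a peak of Cep70, with 0.409% of all peaks.

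By role, all 13 tested genes of centriole assembly lay between -0.16 (Cep295) and 0.46 (Cep78) in log2 fold change, with a median of -0.05. Among the 11 genes of appendages, cilia and centriole ends, the lowest value was -0.27 (Cep170). The 4 genes of centriolar satellites, granules that carry proteins to the centrosome, had a median of 0.23, and the cohesion genes Cep250 and Cep68, whose proteins tether the 2 centrosomes of a cell, had 0.05 and 0.23. None of these was called.

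Cep112, a coiled-coil gene on chromosome 11, had 110, 104, 93.6, 112 and 83.5 CPM in the aged Ri libraries 1 to 5, against 67.9, 47.5, 79.0, 72.0 and 94.4 CPM in aged libraries. Aged Ri was higher in 4 of 5 same-numbered pairs, and the groups overlapped. Its log2 fold change was 0.44 ± 0.15 (SE), with an adjusted p of 0.386 by edgeR, and within batches it was 0.90, 0.43 and -0.17. Cep78, a protein of the centriole wall, had 0.46 ± 0.20 (adjusted p = 0.657) and Cep170b 0.49 ± 0.29 (adjusted p = 0.851). At the low end after Cep70 stood Cep170 at -0.27 ± 0.16 (adjusted p = 0.850) and the subdistal appendage gene Cep128 at -0.24 ± 0.14 (adjusted p = 0.850). The Cep170b difference was 0.49 at its end but -0.061 when all peaks of the gene were summed.

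**Figure D2:**
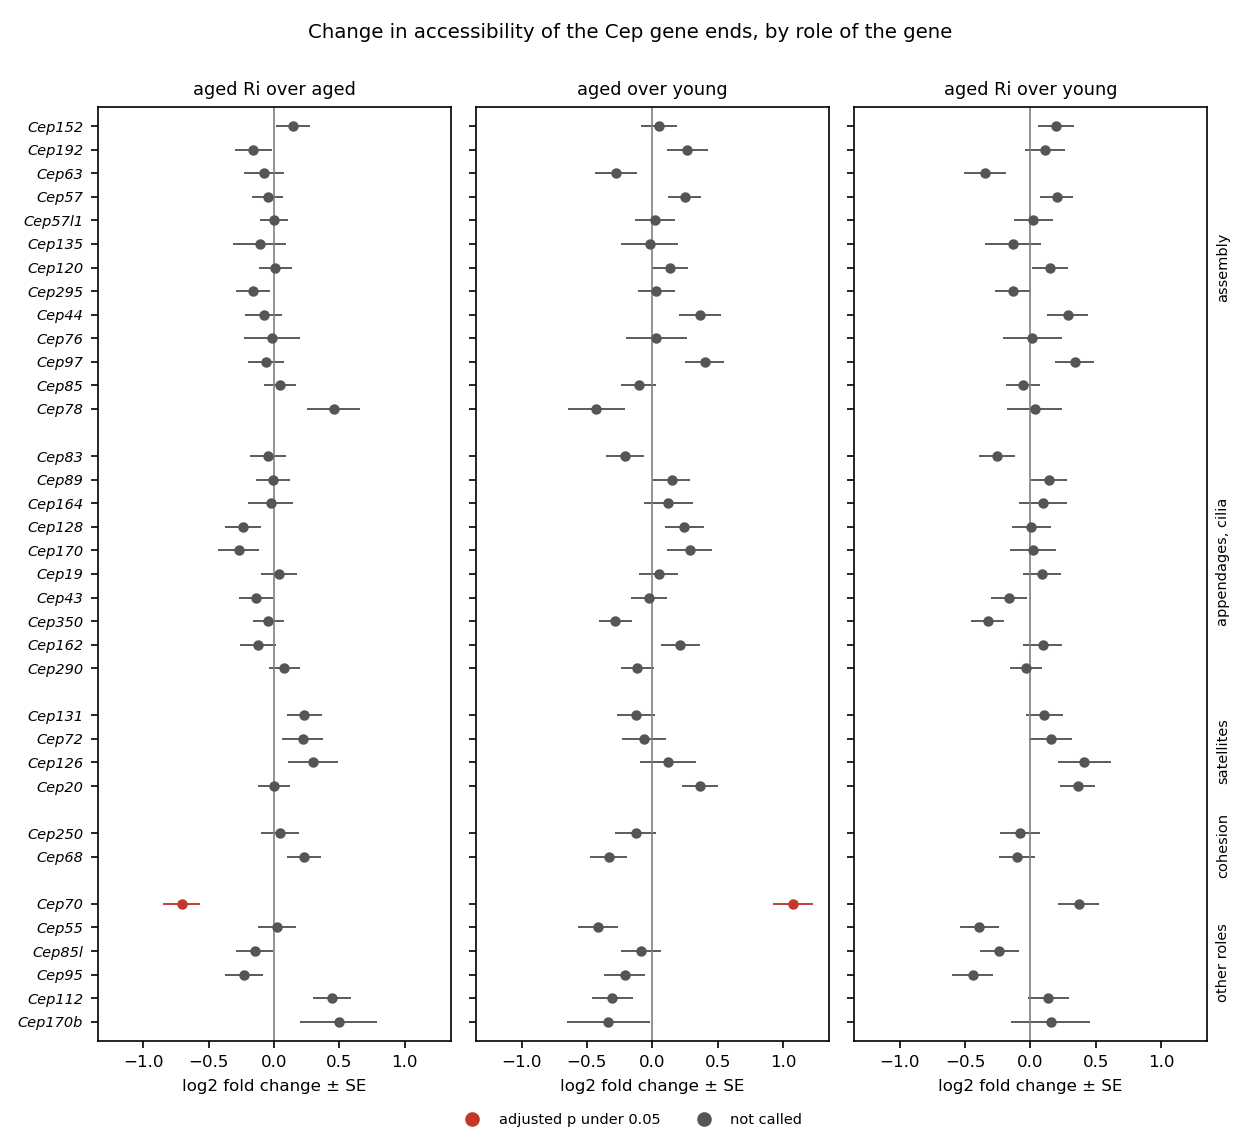
Log2 fold change with its SE at 35 of the 36 Cep gene ends, by role, for aged Ri over aged, aged over young and aged Ri over young. Only the Cep70 end is called (red), at -0.71 and 1.08 in the first and the middle panel, and the aged libraries are shared by those panels.

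Cep70, on chromosome 9, encodes a protein that binds gamma-tubulin and takes part in microtubule organisation at the centrosome. Its annotated span runs from 99183584 to 99325879 on the plus strand, while the start site listed for it lies at 99243341. RefSeq gives the gene 1 curated and 13 predicted coding transcripts and 6 predicted non-coding ones, and the table used does not say which of them begins at the outer end. The end tested was that outer end, with peaks at chr9:99182090-99182789 and chr9:99183100-99183799, which are 60.9 and 59.9 kb upstream of the listed start. No other protein-coding gene has an end there. The nearest annotated neighbour is the non-coding RNA gene Gm33857, 6.1 kb further upstream, and Pik3cb ends 41.9 kb upstream. Faiml lies inside the Cep70 span, between these peaks and the listed start.

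The Cep70 outer end had 94.1, 88.2, 146, 108 and 74.5 CPM in the aged Ri libraries 1 to 5, against 139, 134, 223, 197 and 134 CPM in the aged libraries 1 to 5. Each aged Ri library was below the aged library of its number, and the groups overlapped only in that aged Ri 3 exceeded aged 1, 2 and 5. Means were 102 ± 27.3 CPM in aged Ri and 166 ± 41.9 CPM in aged libraries (SD, n = 5 each). The log2 fold change was -0.71 ± 0.14 (edgeR, adjusted p = 0.0194), and within batches 1 to 3 it was -0.58, -0.74 and -0.84. With the replicate number as a block the adjusted p was 7.13e-05. The call was lost without aged 1, 2, 3 or 4 or aged Ri 4 or 5 (adjusted p 0.0595 to 0.121), without the batch term (0.590), with scaling over all peaks (0.227) and with all 5 peaks of the gene summed (0.375).

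The listed Cep70 start site had 152, 173, 129, 187 and 133 CPM, scaled over start sites, in the aged Ri libraries 1 to 5, against 159, 216, 182, 208 and 170 CPM in the aged libraries 1 to 5. Each aged Ri library was again below its aged partner, by less. The log2 fold change was -0.28 ± 0.13 with an adjusted p of 0.727 by edgeR.

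Cep41, which acts in tubulin glutamylation in cilia, had its start-site peak at chr6:30693286-30693985, inside the annotated span. The start site had 29.8, 45.1, 38.1, 36.7 and 61.4 CPM in the aged Ri libraries 1 to 5, against 50.8, 54.8, 66.8, 67.3 and 75.8 CPM in the aged libraries 1 to 5. It was lower in 5 of 5 pairs, with overlap between the groups through aged Ri 5. The log2 fold change was -0.60 ± 0.18 and the adjusted p 0.287 by edgeR, so it was not called.

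Same-numbered aged Ri and aged libraries deviated together to unequal degrees, so single peaks were also tested with the replicate number as a block. That fit called 4 Cep peaks of 79, against 4.42% of all peaks. They were lower at the -60.9 kb peak of Cep70 (39.9 ± 11.8 CPM, scaled over all peaks, in aged Ri against 68.1 ± 21.1 in aged), at the Cep41 start and at a peak inside Cep120 (3.64 ± 1.34 against 8.41 ± 2.63), and higher at a peak inside Cep68, 11.9 kb from its start (11.03 ± 2.73 against 5.24 ± 2.47; SD, n = 5 each). At gene ends the block left the count at 1, with 1.15% of all ends called.

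Age was compared in untreated cells, aged against young. At gene ends 1 of 36 Cep genes changed, and it was again Cep70, here higher. Over all ends 2.1% were called in either direction and 1.87% were called higher (247 higher, 31 lower). The Cep ends had a median log2 fold change of 0.00 (18 positive, 18 negative), against -0.01 over all ends, and 35 of 36 lay within 0.5 while 86.3% of all ends did. Of the 32 listed start sites, none was called by edgeR or DESeq2, while edgeR called 1.91% of all start sites. At an unadjusted p under 0.05 in edgeR, 3 were higher and 2 lower, with 17.2% of all start sites under it. The 95% interval of the difference lay within 1.5-fold either way at 22 of the 32 start sites and within 2-fold at all 32. With scaling over all peaks instead of gene ends, the median log2 fold change of all ends was -0.25 in aged against young cells and -0.24 in aged Ri against young cells, against -0.01 and -0.00 when scaled over gene ends. Under that scaling the ends called in aged against young cells were 73 higher and 81 lower, and in aged Ri against young cells 258 higher and 519 lower, while scaled over gene ends the second comparison had 530 higher and 159 lower.

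The Cep70 outer end had 139, 134, 223, 197 and 134 CPM in the aged libraries 1 to 5, against 55.1, 124, 67.0 and 72.7 CPM in the young libraries 1 to 4. The groups did not overlap, although young 2 came near the lowest aged libraries. The mean was 166 ± 41.9 CPM in aged and 79.7 ± 30.4 CPM in young libraries (SD, n = 5 and 4). In the model Cep70 rose 2.11-fold (log2 fold change 1.08 ± 0.15, edgeR, adjusted p = 3.79e-05), with 1.30, 1.19 and 0.87 within the 3 batches. The call held in all 12 other settings and without each of the 9 libraries, with adjusted p up to 0.0336. The size varied more, as the log2 fold change ran from 0.53 to 1.13 over those settings. It ran from 0.96 to 1.22 with 1 library left out. Beside this, the summed megakaryocyte markers were also higher in aged libraries, with Gp1ba and Vwf called. The stem cell marker Hoxb5 was called higher too (log2 fold change 1.07 ± 0.24, edgeR, adjusted p = 0.0109). No marker of the other lists was called. At an unadjusted p under 0.05 in edgeR were 3 of 6 myeloid and 3 of 4 endothelial and stromal ends, with 17.6% of all ends. The part of any of these markers in the result was not tested. The aged libraries serve here and in the Rhosin comparison, so the opposite signs of the 2 log2 fold changes, -0.71 and 1.08, share those measurements.

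Of the 5 Cep70 peaks, 2 were called higher, 1 of the 2 at the outer end and 1 within the gene. At -60.9 kb the peak had 68.1 ± 21.1 CPM in aged and 35.7 ± 14.4 CPM in young libraries (log2 fold change 1.01 ± 0.22, edgeR, adjusted p = 0.00512; 0.0647 without young 1 and 0.0677 without the batch term). At -59.9 kb it had 12.7 ± 1.39 against 11.1 ± 3.58 CPM (0.20 ± 0.29, adjusted p = 0.719). The peak at -30.6 kb rose, with 22.0 ± 8.02 CPM in aged against 11.6 ± 5.29 CPM in young libraries (1.04 ± 0.28, adjusted p = 0.0237), and lost the call without aged 1, aged 3, young 1 or young 3 (adjusted p 0.0568 to 0.205). At -27.0 kb the values were 5.81 ± 1.94 CPM in aged and 3.50 ± 0.69 CPM in young libraries (0.81 ± 0.41, adjusted p = 0.233), higher in aged within each batch (0.28, 0.81 and 0.66) and not called. The sign of the difference at the listed start site depended on the scaling. Scaled over all peaks like the others, it had 78.5 ± 12.8 CPM in aged and 85.0 ± 7.47 CPM in young libraries (-0.09 ± 0.22, adjusted p = 0.837 by edgeR). Scaled over start sites, it had 187 ± 24.4 CPM in aged and 167 ± 10.3 CPM in young libraries (0.15 ± 0.14, adjusted p = 0.606).

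**Figure D3:**
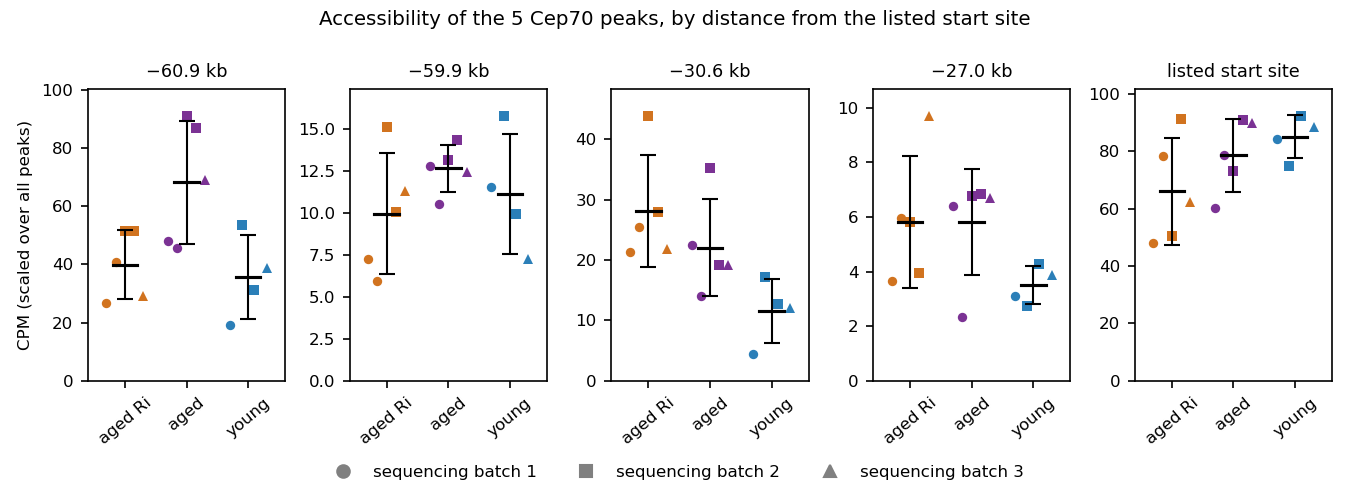
CPM, scaled over all peaks, at the 5 Cep70 peaks in aged Ri, aged and young libraries, by distance from the listed start site. Points are libraries shaped by sequencing batch, with the mean and SD, and the panels have their own axes starting at 0. The aged mean is the highest at -60.9 kb, with means of 39.9 in aged Ri, 68.1 in aged and 35.7 in young libraries, while at the listed start site the means are 66.0, 78.5 and 85.0.

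Whether the upstream region moved apart from the listed start was examined within libraries, as the log2 ratio of raw counts at the 2 outer peaks to those at the start site, a measure chosen after the values had been seen. It was -0.50, -0.74, 0.40, -0.57 and -0.62 in the aged Ri libraries 1 to 5, 0.02, -0.48, 0.51, 0.15 and -0.14 in the aged libraries 1 to 5, and -1.45, -0.11, -1.15 and -0.94 in the young libraries 1 to 4. The aged group overlapped both others, with aged 2 at its low end and young 2 and aged Ri 3 at their high ends. Aged exceeded young by 0.93 (2-sided exact permutation test, p = 0.0476, adjusted over the 3 comparisons 0.143), and by 1.01 when libraries were exchanged within batches only (p = 0.0278, the smallest that the 36 arrangements allow, adjusted 0.0833). Aged Ri differed from aged by -0.42 (exact p = 0.135, within batches 0.0833) and was lower in 5 of 5 pairs, for which 0.0625 is the smallest exact paired p. Aged Ri exceeded young by 0.51 (exact p = 0.206). No comparison of the ratio passed after adjustment.

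**Figure D4:**
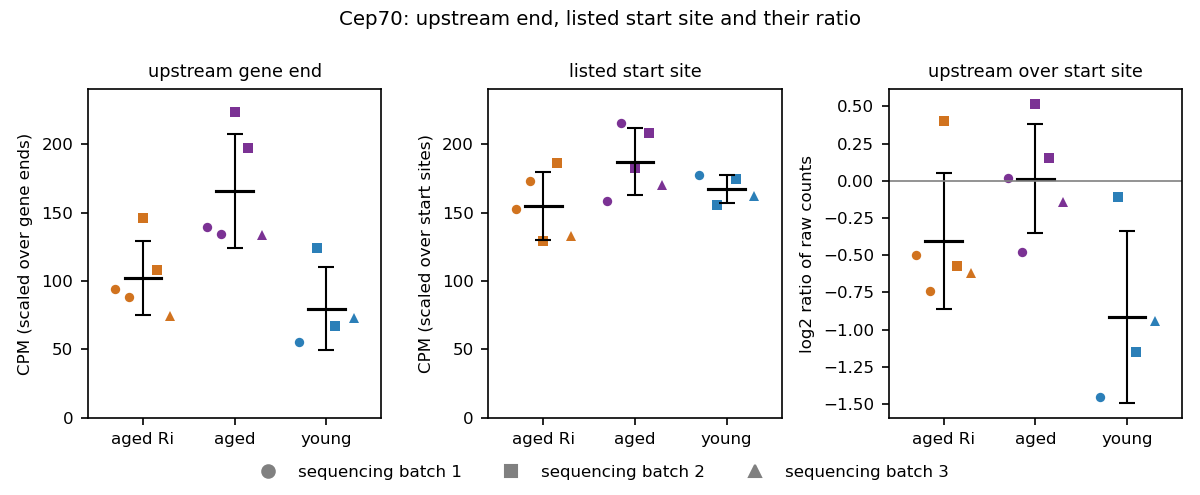
Cep70 in each library, with the mean and SD of each group and points shaped by sequencing batch, as CPM at the upstream gene end, CPM at the listed start site, and the log2 ratio of raw counts between them. The upstream means are 102, 166 and 79.7 CPM in aged Ri, aged and young libraries, and the ratio means are -0.40, 0.01 and -0.91.

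The genes next in size between aged and young were not called. Cep97, which with Cp110 caps the centriole, had 139, 145, 181, 172 and 92.2 CPM in the aged libraries 1 to 5, against 94.1, 129, 102 and 104 CPM in the young libraries 1 to 4. Aged 5 was the lowest of these 9 libraries, and the log2 fold change was 0.40 ± 0.15 (edgeR, adjusted p = 0.149; 0.0462 without aged 5 and 0.0374 without young 4). Without another library the adjusted p by edgeR reached 0.494. Cep44, of the inner centriole wall, had 0.36 ± 0.16 (adjusted p = 0.220). Cep55, which acts at the midbody in the last step of cell division, had 77.1, 141, 135, 135 and 209 CPM in the aged libraries 1 to 5, against 152, 231, 155 and 230 CPM in the young libraries 1 to 4. Its log2 fold change was -0.42 ± 0.15 (adjusted p = 0.139; 0.0352 without aged 5 and up to 0.377 without another library). Cep78 had -0.43 ± 0.22 (adjusted p = 0.305) and Cep170b -0.34 ± 0.32 (adjusted p = 0.612).

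At single peaks, 4 of 79 Cep peaks changed between aged and young cells, 3 higher and 1 lower, while 5.72% of all peaks were called, 4.45% higher and 1.26% lower. Besides the pair of Cep70, the Cep68 peak at chr11:20230982-20231681, 18.1 kb into the gene, rose. It had 73.0, 64.4, 112, 87.6 and 57.0 CPM in the aged libraries 1 to 5, against 27.1, 57.7, 34.1 and 53.2 CPM in the young libraries 1 to 4. Young 2 reached just above aged 5, and the log2 fold change was 0.87 ± 0.24 (edgeR, adjusted p = 0.0242; 0.060 to 0.202 without aged 1, aged 3, young 1 or young 3). The Cep68 end, at its promoter, had -0.33 ± 0.14 and was not called (adjusted p = 0.199). A weak peak 38.5 kb into Cep164 (chr9:45789785-45790484) fell, with 7.2, 2.9, 0.8, 7.5 and 3.1 CPM in the aged libraries 1 to 5, against 32.9, 11.7, 18.5 and 4.8 CPM in the young libraries 1 to 4. Young 1 was far above the rest and young 4 lay among the aged libraries. The log2 fold change was -2.07 ± 0.52 (adjusted p = 0.0248; 0.0556 to 0.173 without aged 1, aged 2, young 1 or young 3). With the gene-end share of each library as a covariate, the only Cep peak called was the -60.9 kb peak of Cep70, with 0.258% of all peaks called.

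Cep peaks were also set beside all peaks of the same position. Scaled over all peaks, the median log2 fold change in aged against young cells was -0.23 over the 48 Cep peaks at gene ends or start sites and -0.22 over all 15417 such peaks. Peaks elsewhere in the gene spans had 0.06 over 31 Cep peaks and 0.12 over all 20923. The share of all counts that fell in Cep peaks was 0.254 ± 0.025% in aged Ri, 0.261 ± 0.018% in aged and 0.284 ± 0.007% in young libraries (SD, n = 5, 5 and 4), alongside the gene-end shares given above. Whether the gene-end shares account for it was not tested.

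Aged Ri cells were last compared with young cells. No Cep gene end was called by edgeR or DESeq2, while 5.2% of all ends were by edgeR. At an unadjusted p under 0.05 in edgeR, 3 Cep ends were higher and 4 lower, with 21.8% of all ends under it. Nor was any of the 32 start sites called, by either tool, against 5.03% of all by edgeR. At an unadjusted p under 0.05 in edgeR, 2 start sites were higher and 4 lower, with 21.2% of all start sites under it. Cep70 had 102 ± 27.3 CPM in aged Ri and 79.7 ± 30.4 CPM in young libraries at its outer end (log2 fold change 0.37 ± 0.16, adjusted p = 0.159 by edgeR), and 0.72, 0.46 and 0.03 within the batches. Higher values were those of the satellite genes Cep126 (0.41 ± 0.21, adjusted p = 0.233) and Cep20 (0.36 ± 0.13, adjusted p = 0.104). Lower values were those of Cep95 (-0.44 ± 0.16, adjusted p = 0.0892; 0.0121 without aged Ri 2 and 0.0143 without young 4), Cep55 (-0.39 ± 0.15, adjusted p = 0.118; 0.0349 without aged Ri 2) and Cep63 (-0.35 ± 0.16, adjusted p = 0.193; 0.0244 without aged Ri 2). Aged Ri 2 held the highest count at Cep63 and Cep95 among the aged Ri libraries, at 162 and 277 CPM. Of the cell type markers, edgeR called 3 ends higher. They were Procr (1.06 ± 0.24, adjusted p = 0.00580), Hoxb5 (0.92 ± 0.24, adjusted p = 0.0163) and Gp1ba (1.24 ± 0.30, adjusted p = 0.0239).

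Of the 79 single peaks, 8 were called against young cells, 4 higher and 4 lower, and 11.5% of all peaks were, 7.9% higher and 3.56% lower. The Cep70 peak at -30.6 kb was the one that held without each library. It had 21.3, 25.5, 43.9, 28.0 and 21.8 CPM in the aged Ri libraries 1 to 5, against 4.4, 17.2, 12.8 and 12.1 CPM in the young libraries 1 to 4, with no overlap. It rose by 1.38 ± 0.28 in log2 units (edgeR, adjusted p = 0.00120), and by 2.16, 1.19 and 0.80 within the batches. Between aged Ri and aged cells its difference was 0.33 ± 0.23 (adjusted p = 0.702), and the -60.9 kb peak was not called there either (-0.77 ± 0.20, adjusted p = 0.0785). The other upstream peaks had -0.32 ± 0.26 at -59.9 kb and -0.02 ± 0.33 at -27.0 kb under Rhosin, and differences between the peaks were not tested.

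A peak 44.5 kb into Cep162, a transition zone gene (chr9:87210666-87211365), had 17.7, 16.2, 25.8, 12.6 and 10.1 CPM in the aged Ri libraries 1 to 5, against 3.1, 6.2, 9.9 and 6.8 CPM in the young libraries 1 to 4. The groups did not overlap, though aged Ri 5 and young 3 nearly touched. It rose by 1.39 ± 0.34 in log2 units (edgeR, adjusted p = 0.00653; 0.0823 without young 1). At the Cep68 peak of 18.1 kb the aged Ri libraries had 69.2, 88.5, 112, 69.0 and 62.7 CPM, all above the young ones (0.91 ± 0.24, adjusted p = 0.0112; 0.0554 without young 3 and 0.0861 without young 1). The weaker Cep68 peak at 11.9 kb had 11.03 ± 2.73 CPM in aged Ri and 5.12 ± 1.79 CPM in young libraries (1.09 ± 0.35, adjusted p = 0.0382), and 7 of the 9 libraries, all but aged Ri 4 and young 4, were each needed for the call (0.0505 to 0.185 without).

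Lower in aged Ri than in young cells was the outer peak of Cep95 at chr11:106787300-106787999, which lies at the end of Ddx5 as well. It had 12.5, 21.3, 14.8, 19.8 and 25.1 CPM in the aged Ri libraries 1 to 5, against 31.1, 39.2, 35.5 and 26.6 CPM in the young libraries 1 to 4. No libraries overlapped, and the log2 fold change was -0.81 ± 0.23 (edgeR, adjusted p = 0.0206; 0.0527 to 0.0933 without aged Ri 1, aged Ri 3, young 1 or young 2). The Cep41 start-site peak had 18.3 ± 7.15 CPM in aged Ri, 27.1 ± 8.47 CPM in aged and 32.1 ± 7.0 CPM in young libraries. Against young cells it fell by 0.78 in log2 units (SE 0.24, adjusted p = 0.0304; 0.0817 to 0.144 without aged Ri 1, aged Ri 3, young 1 or young 3), although on the start-site scale its adjusted p was 0.106. Both weak Cep164 peaks, at 38.5 and 10.0 kb, fell (-1.62 ± 0.48, adjusted p = 0.0371, and -0.94 ± 0.30, adjusted p = 0.0386). Either lost the call without aged Ri 1, 2 or 3 or young 1, 2 or 3, with adjusted p of 0.0664 to 0.217 and of 0.0555 to 0.366.

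Within batches the differences of these 8 peaks were smallest in batch 3, which has 1 library per group. Cep95 had -0.89, -1.08 and -0.08 in batches 1 to 3, the Cep41 start had -0.96, -0.94 and -0.23, and the Cep164 peak at 38.5 kb had -2.40, -1.67 and 0.10. With the gene-end share of each library as a covariate none of the 79 peaks was called against young cells, with 0.994% of all peaks called. Every young library has a higher gene-end share than every aged Ri library, so share and group cannot be fully told apart in this comparison, while aged 5, at 49.6%, lies among the young libraries.

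**Figure D5:**
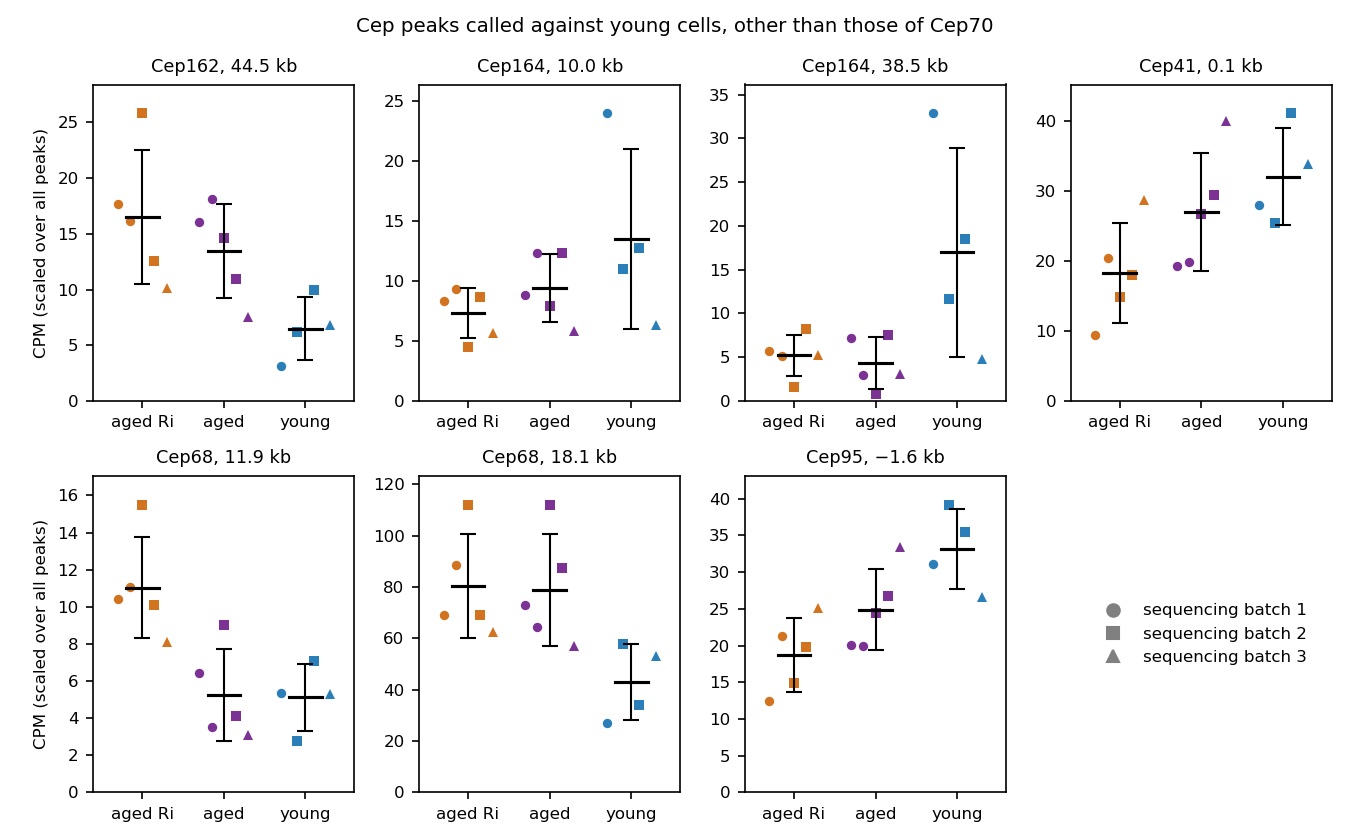
CPM, scaled over all peaks, at the 7 Cep peaks other than those of Cep70 that were called in aged or aged Ri against young cells, titled by gene and distance from the listed start site. Points are libraries shaped by sequencing batch, with the mean and SD. The aged Ri and young libraries do not overlap at Cep162, at both Cep68 peaks and at Cep95, and young 1 is the highest library at both Cep164 peaks.

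Other genes of the same machinery, taken from lists of 39 other centrosome genes, 29 cilium genes and 25 mitosis genes, gave 35, 27 and 25 tested ends. Among the centrosome genes listed, Sdccag8 shares its end peak with Cep170, so that peak is not separate from the Cep set. In aged Ri against aged cells none of the 87 was called by edgeR or DESeq2, while 0.0755% of all ends were called by edgeR. At an unadjusted p under 0.05 there were 4 of the 87 and 889 of all 13239 ends in that comparison, 15 and 2333 in aged against young, and 11 and 2889 in aged Ri against young cells. In aged against young cells 1 of the 87 was called, with 2.1% of all ends. Crocc, which encodes the ciliary rootlet protein rootletin and like Cep68 serves centrosome cohesion, fell, with 182 ± 22.3 CPM in aged and 276 ± 37.8 CPM in young libraries (log2 fold change -0.58 ± 0.14, edgeR, adjusted p = 0.0172). In aged Ri against young cells 1 was called, with 5.2% of all ends. Birc5, which encodes survivin of the chromosomal passenger complex, fell, with 71.9 ± 3.54 CPM in aged Ri and 118 ± 10.4 CPM in young libraries (-0.70 ± 0.14, adjusted p = 0.00167). The medians of the 3 lists lay between -0.14 and 0.00 in the 3 comparisons, with medians of all ends between -0.01 and -0.00.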

How the data were processed

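The authors deposited raw counts per consensus peak and library, checked here to be whole numbers, with coordinates in mm10. The submitters' processing notes name featureCounts without a version, SAMtools 1.14 and R 4.2.0. The aligner, the peak caller, the treatment of duplicates and any shift for Tn5 are not given in the sources used here. Duplicates or a missing shift would change counts within a peak, and the depth of each library sets the counting error.

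Gene spans and promoter sequences came from RefSeq (GRCm38.p6). For each gene, the counts of peaks that touched a window reaching 1 kb to both sides of an end were added up for each end, and the end with the larger total was kept. Peaks were assigned to a member when they overlapped its span or lay within 1 kb. Listed start sites came with the promoter sequences, and this readout was added after the data had been seen. The values of 1 member are not reported here on their own, and the plots leave it out. The members, roles and gene lists were chosen with earlier results of these data known. Genes were named by rule: Cep70, every Cep gene with a called end or peak, the 3 ends with the highest and the 3 with the lowest log2 fold change of each comparison among those with a mean count of at least 20, the 5 most and 3 least open ends, and up to 3 called members of each other list. Where no peak was called, the 2 peaks of smallest p were taken. The Cep41 start site, the start-site values of Cep70 and the Cep70 ratio were added to these after their values were seen.

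Counts were fitted with edgeR 4.0.16 in R 4.3.3 over all 14 libraries (filterByExpr, scaling by the trimmed mean of M values, quasi-likelihood test with the robust option, and terms for group and for sequencing batch), separately for gene ends, start sites and peaks, with Benjamini-Hochberg adjustment over each whole table and a threshold of 0.05. CPM values are therefore scaled within each table and are not adjusted for batch. Standard errors are the log2 fold change over the square root of F, and intervals span 1.96 of them. Within-batch values use log2(CPM + 1), and the ratio of raw counts had 0.5 added to each count. Exact permutations ran in Python 3.11.15 with SciPy 1.17.1. The fits were tested on simulated data. DESeq2 1.42.0, other scalings, filters, windows, terms and left-out libraries were alternatives. Within groups no library was a copy of another, as the lowest chi-square per degree of freedom between libraries of a group was 1.46.

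Replicate numbers were checked for pairing on 25903 peaks. Same-numbered aged Ri and aged libraries, which also share a sequencing batch, correlated at 0.14 to 0.65 in their deviations from the group means. Differently numbered ones ran from -0.45 (aged Ri 1 and aged 5) to 0.34 (aged Ri 1 and aged 2). Aged Ri 4 had 0.29 with aged 5 and 0.28 with aged 4. The numbers were therefore used as pairs in the counts of pairs, the paired test of the ratio and the fits with the replicate number as a block. The main fits did not use the pairing. Pairing was not shown for every number. Same-numbered aged and young libraries correlated at -0.28 to 0.07, and aged Ri and young at -0.20 to 0.07, so those share only a number.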

Additional observations from a re-analysis of the deposited data

Results flagged for a closer look

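Among 75 sets of library values examined for a single library far from its group, 2 stood out. The number that chance alone would give was not tested. The Cep170 end, which it shares with Sdccag8, had 80.6 CPM in young 1, against 53.1 to 56.4 CPM in the other young libraries. The Cep63 end, which it shares with Anapc13, had 189 CPM in young 3, the shallowest library, against 129 to 136 CPM in the other young libraries. Neither gene was called in a comparison with young cells.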

How the results depend on the processing

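The number of Cep gene ends called in aged Ri against aged cells fell to 0 without the batch term, with the gene span summed and with scaling over all peaks. Those fits called 3 of all 13239, 8 of 15534 and 6 of 13239 ends. In aged against young cells 3 Cep ends were called with the replicate block (Cep55, Cep70 and Cep97), and 845 of all 12616. In aged Ri against young cells 2 were called with trend offsets (Cep20 and Cep95), and 771 of all 13239. With the gene span summed 2 were called (Cep350 and Cep68), and 1551 of all 15534. Cep peaks called in aged Ri against aged cells numbered 1 with DESeq2, trend offsets or the gene-end share as a covariate. They numbered 2 with the 2 groups alone and 4 with the replicate block. Those fits called 230, 237 and 341 of all 56235 peaks, and 819 and 2292 of 51901. In aged against young cells 1 Cep peak was called without the batch term, 1 with the gene-end share, 7 with the 2 groups alone and 9 with the block. Those fits called 1808 and 145 of all 56235 peaks, and 3077 and 3901 of 45229. In aged Ri against young cells 5 Cep peaks were called without the batch term and 0 with the gene-end share, against 4204 and 559 of all 56235. Cep start sites called numbered 2 with the replicate block in aged against young cells, with 799 of all 10342. In aged Ri against young cells 1 was called with trend offsets, with 631 of all 10763. With 1 library left out, the ends called ran from 0 to 1 in aged Ri against aged, 1 to 3 in aged against young and 0 to 4 in aged Ri against young cells. The peaks ran from 0 to 1, 0 to 8 and 2 to 10, and the start sites from 0 to 0, 0 to 2 and 0 to 3, in the same order. The counts of ends were highest without aged 5 (3) and without aged Ri 2 (4), and those of peaks lowest without young 1 (0 and 2). Over the whole annotation, 662 of 13105 and 1079 of 13260 ends, and 776 and 3738 of 54966 peaks, were called in those fits. The cause of these differences was not tested.

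Of 723 values of 38 single results under other settings, 621 kept their direction and side of the threshold, 78 were no longer called, 18 were newly called and 6 changed sign. None of those 6 was called. They were Cep170b in aged Ri against aged cells with the gene span summed (-0.061), Cep63 (0.070), Cep95 (0.036) and the Cep70 start (0.064) in aged Ri against young cells with the gene-end share, and the Cep41 start in aged against young cells with the replicate block (-0.055) and without young 4 (-0.060; with 1 library left out it ran from -0.060 to 0.19). Between aged or aged Ri and young libraries the replicate number is no pairing. The 95% interval of the aged against young difference, which holds counting error and spread between libraries together, lay within 2-fold at 45 of 79 Cep peaks but at 35 of 36 gene ends, and how much of this is depth was not tested.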
